A study of Homo sapiens with 6 samples.

Results

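The replication-dependent histone genes were followed in AGS cells, an established line from a human gastric adenocarcinoma, after knockdown of C1GALT1, the enzyme that adds galactose to the first sugar of mucin-type O-glycans. They were taken as every gene with a current symbol H1-1 to H1-6 or beginning H2AC, H2BC, H3C or H4C, which gave 66 genes of the 22439 named on the array, reached through 75 of its 58201 gene probes. The brightest probe stood for each gene. Of these genes, 6 encode H1, 17 H2A, 17 H2B, 12 H3 and 14 H4. The annotation lists 65 as protein coding and H2AC2P as a transcribed pseudogene. The cells were harvested 48 h after transfection, with a nontargeting siRNA in the 3 si-Control samples and with the siRNA si-C1GALT1-3 in the 3 si-C1GALT1-3 samples. One siRNA in 1 line was therefore compared with 1 control siRNA. Each sample was hybridised to a one-colour expression array, and samples with the same replicate number shared a slide, on which si-Control always held the same position. Slide position and treatment cannot be told apart. Whether the 3 samples of a group were separate cultures is not given in the sources used here, so the p-values may measure only technical spread.

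Canonical histones package newly copied DNA. H2A, H2B, H3 and H4 form the nucleosome core and H1 binds the linker DNA, and most of their genes lie in clusters that are transcribed when cells replicate DNA. Transcription takes place in a nuclear body organised by NPAT, and the messages end in a stem-loop bound by SLBP in place of a poly(A) tail. They are destroyed rapidly when DNA synthesis stops, so that their abundance follows S phase. The primer used to copy RNA into cDNA for these arrays is not given in the sources used here, and with it the share of stem-loop messages that entered the labelling is unknown. In bulk RNA, fewer cells in S phase and less histone RNA in each such cell cannot be told apart.

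The scanner marked 66.2% to 72.7% of gene spots per array as well above background, here called detected, and no gene spot was saturated. A rectangular region of the si-Control replicate 2 array stood apart and was left out, which took 15.9% of its gene spots and the spots of 14 histone genes. Those genes rest on 2 si-Control samples. They are H1-3, H2AC1, H2AC8, H2AC12, H2BC3, H2BC5, H2BC9, H2BC10, H2BC14, H2BC15, H3C3, H3C6, H4C5 and H4C8. H4C1 lacks si-C1GALT1-3 replicate 3, whose spot was an outlier. The target itself, C1GALT1, stood at 12.22, 13.03 and 12.62 on the normalised log2 signal scale in si-Control replicates 1 to 3 and at 11.76, 11.98 and 11.13 in si-C1GALT1-3. These groups did not overlap, and the difference was -1.0 (SE 0.31, limma adjusted p = 0.265). It did not pass the threshold of p under 0.01 and 2-fold, which it passed with dim probes left out. All 6 epithelial markers examined were detected on the 6 arrays. Of 8 markers of blood, vessel, stromal and liver cells, PTPRC, CD3E, COL1A1 and HBB were detected in every sample of a group. HBB was called lower at -1.63, against 1.33% of all genes called lower, a call lost with the slide as a block. It was detected in 2 of 3 si-C1GALT1-3 samples, so the size of this fall is not exact. Differences were below 0 for 7 of these 8 markers, with a median of -0.35, and for 5 of the 6 epithelial markers, with a median of -0.13. Whether such cells were present, and their part in the histone results, was not tested.

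The promoters of the H4 genes are shown because the 3 histone genes with the smallest p were H4 genes, while H4C11 had a fitted difference above 0. On either strand, the capitals mark TATAAA, the letters of the TATA box, and CCAAT. They also mark GGTCCG, the core letters of the H4 site to which HINFP binds. In H4C13 the CCAAT ends 2 bases before the GGTCCG. Each sequence is the 250 bases before the start of the gene in RefSeq (GRCh38.p14), 5′ to 3′ on the strand of the gene. H4C2 covers chr6:26027284-26027533 on the minus strand, H4C13 chr6:27873535-27873784 on the minus strand and H4C11 chr6:27823842-27824091 on the plus strand.
H4C2: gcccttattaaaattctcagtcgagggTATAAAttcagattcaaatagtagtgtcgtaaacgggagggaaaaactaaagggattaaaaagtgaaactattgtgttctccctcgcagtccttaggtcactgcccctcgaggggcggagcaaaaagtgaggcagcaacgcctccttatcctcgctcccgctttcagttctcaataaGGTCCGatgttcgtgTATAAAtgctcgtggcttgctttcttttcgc
H4C13: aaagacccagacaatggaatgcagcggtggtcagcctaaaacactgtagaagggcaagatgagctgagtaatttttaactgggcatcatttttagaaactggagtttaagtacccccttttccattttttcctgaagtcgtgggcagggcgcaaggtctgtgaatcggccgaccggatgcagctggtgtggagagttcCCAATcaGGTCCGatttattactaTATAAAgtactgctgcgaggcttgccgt
H4C11: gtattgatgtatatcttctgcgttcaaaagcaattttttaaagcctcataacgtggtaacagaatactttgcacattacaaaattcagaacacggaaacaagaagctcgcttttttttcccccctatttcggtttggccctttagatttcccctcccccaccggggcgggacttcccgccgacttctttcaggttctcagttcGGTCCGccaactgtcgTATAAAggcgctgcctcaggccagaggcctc

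The GGTCCG began 46 bases before the start in H4C2, 45 in H4C13 and 47 in H4C11. Each was followed by a TATAAA that began 31, 28 and 31 bases before the start. H4C2 also held a TATAAA that began 223 bases before the start. Over the 64 promoter entries of the 60 histone genes in the RefSeq table, with 50 bases after the start included, GGTCCG or its reverse complement was found in 11 of 12 H4 promoters and in 11.3% of all 35116 promoters. H4C7 was the H4 entry without it. The 3 genes shown share the match, and their fitted log2 differences were -0.67, -0.56 and 0.39. Genes were matched by symbol, and H2AC2P, H2AC12, H3C11, H3C12, H4C1 and H4C3 had no entry.

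Promoters of the linker and core histone genes held other motifs, shown here for H1-5 and H2AC16, the genes of their classes with the most negative difference. The capitals mark AAACACA, the letters of the H1 box, in H1-5 (chr6:27867589-27867838, minus strand). In H2AC16 (chr6:27865067-27865316, plus strand) they mark ATTTGCAT, the letters of the octamer bound by POU2F1. CCAAT is marked in both, and all matches are on either strand.
H1-5: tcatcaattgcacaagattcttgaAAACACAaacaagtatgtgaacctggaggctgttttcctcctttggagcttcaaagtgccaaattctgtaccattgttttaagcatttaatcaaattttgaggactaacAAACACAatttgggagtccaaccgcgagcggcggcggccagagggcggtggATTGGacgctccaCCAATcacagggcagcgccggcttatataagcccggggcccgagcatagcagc
H2AC16: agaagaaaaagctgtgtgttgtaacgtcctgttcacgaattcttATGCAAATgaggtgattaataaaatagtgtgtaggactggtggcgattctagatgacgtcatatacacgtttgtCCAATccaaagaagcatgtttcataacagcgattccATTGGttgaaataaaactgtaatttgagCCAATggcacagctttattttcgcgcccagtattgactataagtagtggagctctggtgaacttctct

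AAACACA was found in 6 of 6 H1 promoters and in 5.64% of all promoters. ATTTGCAT was found in 11 of 15 H2A and 14 of 19 H2B promoters, in 1 of 12 H3 promoters, in none of the H1 and H4 promoters, and in 1.77% of all promoters. CCAAT was found in every H1, H2A, H2B and H3 promoter, in 3 of 12 H4 promoters and in 34.6% of all promoters. TATAAA was found in 43 of the 64 histone entries and in 11.5% of all. These matches describe letters in the window.

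Nearly all histone genes were detected, and none passed the call between the groups. Of the 66 genes, 65 were detected in every sample of at least one group and 51 in all 6 samples, the rest being H1-6 and the 14 genes whose si-Control replicate 2 spot was left out. H1-6, the testis H1, was detected in no sample. At the threshold of the study, p under 0.01 and at least 2-fold, none of the 66 genes was called in either direction by limma. Over all genes 2.08% were called higher and 1.33% lower, and no histone gene had an adjusted p under 0.05, against 0.138% of all genes. At an unadjusted p under 0.05, 3 histone genes were lower and 0 higher, which is 4.55% lower against 7.14% of all genes, with 9.49% of all genes higher. The methods' t-test also called 0. Over the 65 detected genes, the 95% interval of the difference excluded a 2-fold fall for 37, and for 36 it lay within 2-fold in both directions. For the other 28 genes a 2-fold fall was not excluded at this number of arrays in the fit without the slide as a block. Intervals with the slide as a block were not counted.

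Below that threshold the fitted differences leaned 1 way. The difference was below 0 for 57 of 66 genes, or 86.4%, against 47.6% of all genes. The median over the histone genes was -0.27 on the log2 scale, against 0.02 over all genes, and single genes ranged from -0.84 for H2AC16 to 0.50 for H3C8. The 66 probes detect near-identical messages and may share them, so that they may not be 66 separate measurements. Probe sequences were not used here, and how far 1 probe reads a neighbouring gene was not tested. The groups did not overlap, with si-C1GALT1-3 lower, in 6 of the 51 genes measured on all arrays, or 11.8%, against 10.2% of all genes. The 6 were H2AC16, H2BC26, H3C2, H4C2, H4C3 and H4C13. None of the 51 was without overlap and higher, against 13.1% of all genes.

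**Figure D1:**
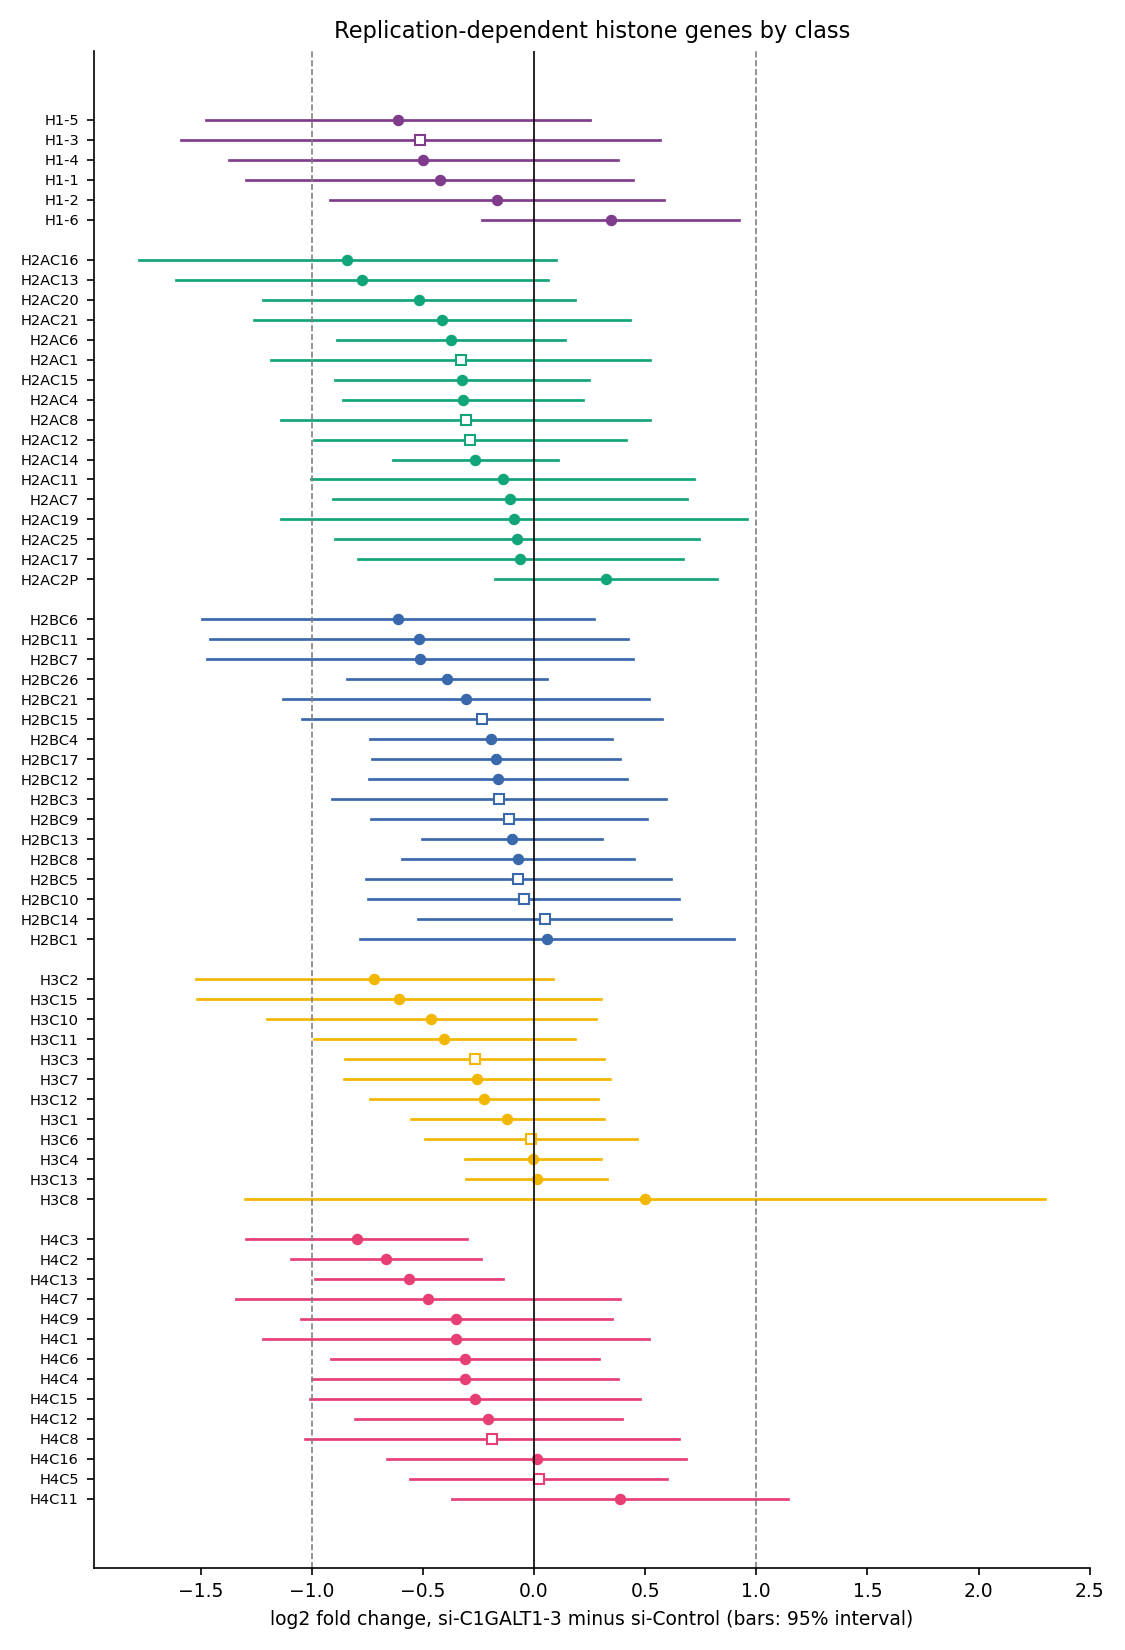
Log2 fold change, si-C1GALT1-3 minus si-Control, of each of the 66 histone genes by class, with the 95% interval from limma as bars and 2-fold changes as dashed lines. Open squares are genes with 2 si-Control values. Points lie left of 0 for 57 genes, and the intervals of H4C3, H4C2 and H4C13 exclude 0.

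The lean was not seen on every slide. Within slide 1 the median difference between the paired samples was 0.03 and 30 of 66 genes, or 45.5%, were lower in si-C1GALT1-3, against 45.2% of all genes. Within slide 2 the median was -0.49 and 45 of 52 genes, 86.5%, were lower, against 47.6% of all genes. Within slide 3 it was -0.43 and 56 of 65 genes, 86.2%, were lower, against 49.8%. Of the 51 genes with values on every slide, 21, or 41.2%, were lower on all 3 slides, against 22% of all genes. Another 2, or 3.92%, were higher on all 3, against 27.6%. They were H1-6, detected in no sample, and the pseudogene H2AC2P. For the 51 genes, the median distance from the gene's own mean over the 6 arrays was 0.20, 0.29 and -0.02 in si-Control replicates 1 to 3. It was 0.28, -0.18 and -0.46 in si-C1GALT1-3 replicates 1 to 3. The si-C1GALT1-3 replicate 1 array thus sat among the si-Control arrays, and replicates 2 and 3 sat below all of them. Without si-C1GALT1-3 replicate 1 the median difference was -0.46, with 18 of 66 genes lower at p under 0.05, against 4.6% of all genes in that fit, and 1 called lower, H2AC13, against 0.976% of all genes. Without si-C1GALT1-3 replicate 3 it was -0.10, and without si-Control replicate 1 it was -0.17. The size of the lean rests on single arrays.

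**Figure D2:**
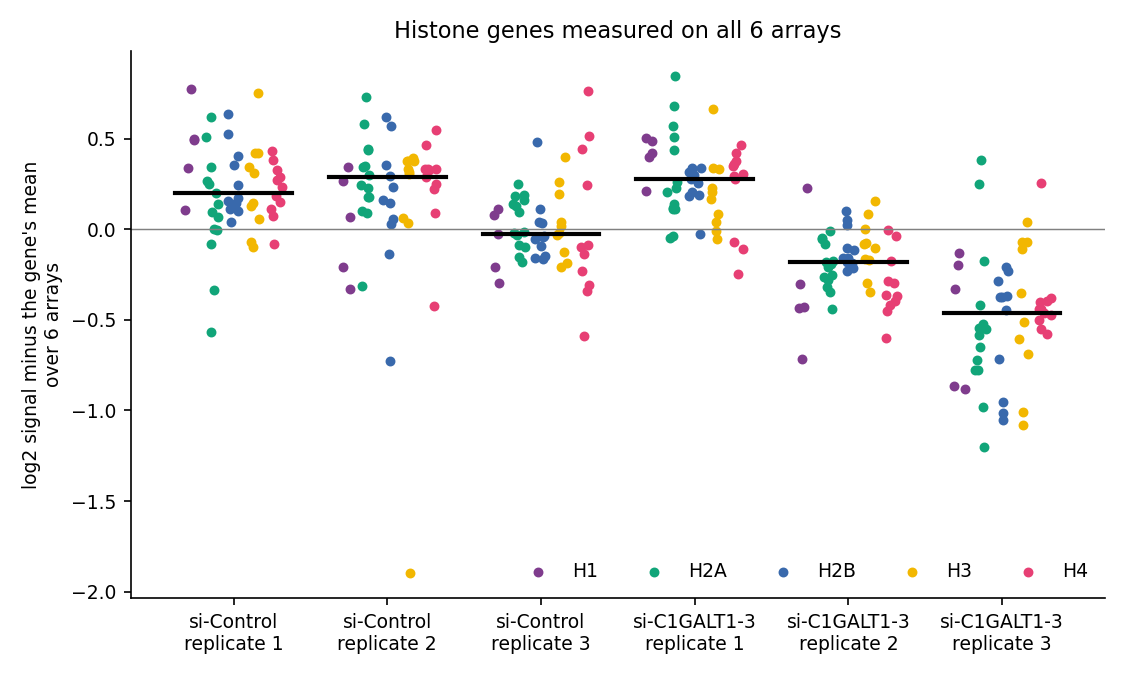
Log2 signal of the 51 histone genes measured on all 6 arrays, each minus its own mean over the arrays, coloured by class, with black bars at the median. The bars lie at 0.20, 0.29 and -0.02 for si-Control and at 0.28, -0.18 and -0.46 for si-C1GALT1-3.

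**Figure D3:**
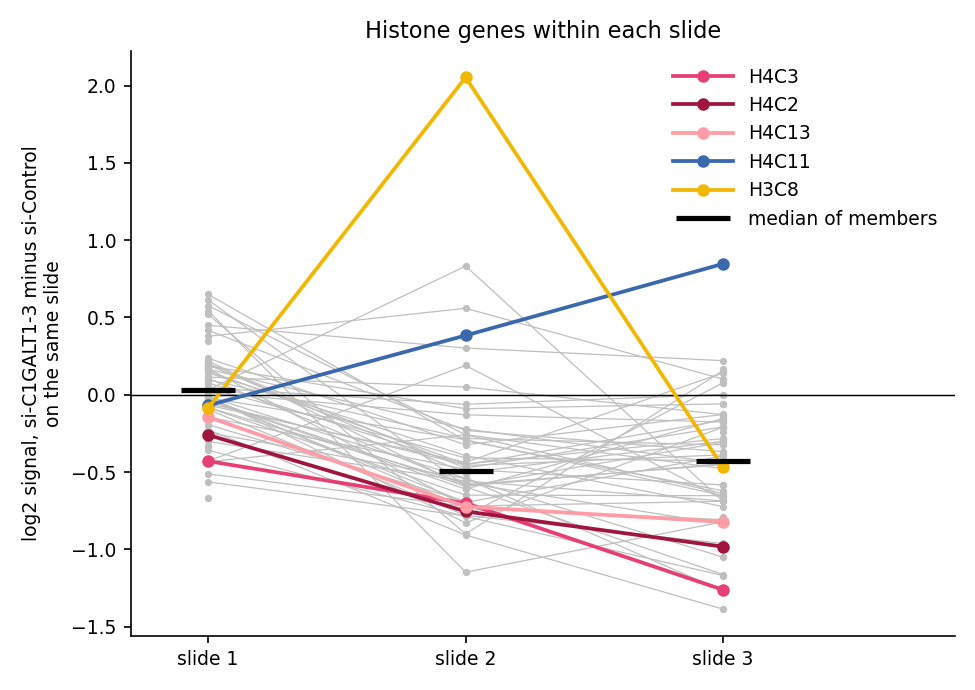
Difference in log2 signal between the si-C1GALT1-3 and si-Control arrays of the same slide, with 1 line per gene and black bars at the median of the genes measured. The medians are 0.03, -0.49 and -0.43. On slide 2, 7 of 52 genes lie above 0, with H3C8 the highest, and H4C11 is the highest on slide 3.

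Among the H1 genes, which encode the linker histones that close the nucleosome and compact the fibre, 5 of 6 differences were below 0, with a class median of -0.46, which ran from -0.70 to -0.16 as single arrays were left out. None had a p under 0.05. H1-5 stood at 13.30, 13.15 and 12.88 in si-Control and at 13.20, 12.37 and 11.92 in si-C1GALT1-3. The groups overlapped through si-C1GALT1-3 replicate 1, and the difference was -0.61 (SE 0.35, limma adjusted p = 0.507). It ran from -0.97 to -0.32 as single arrays were left out. H1-4, the brightest H1 gene, stood at 14.61, 14.38 and 14.09 against 14.53, 13.81 and 13.25, a difference of -0.50 (SE 0.35). That difference ran from -0.83 to -0.19 as single arrays were left out. In both genes si-C1GALT1-3 replicate 1 lay within the si-Control values and replicates 2 and 3 below them. H1-2 differed by -0.17 (SE 0.30), the smallest fitted difference of the H1 genes above background. H1-1 and H1-3 differed by -0.42 and -0.51.

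Of the 17 H2A genes, 16 had a difference below 0 and the median was -0.31 (-0.52 to -0.13 as single arrays were left out). H2A pairs with H2B on the outer faces of the nucleosome core. H2AC16, the most negative gene of all 66, stood at 10.84, 11.23 and 10.68 in si-Control and at 10.61, 10.32 and 9.29 in si-C1GALT1-3. The groups did not overlap, yet the 3 si-C1GALT1-3 samples spread over more than 2-fold. The difference of -0.84 (SE 0.38), or 1.79-fold, did not pass the test (limma adjusted p = 0.407). It ran from -1.11 to -0.45 as single arrays were left out. H2AC13 stood at 12.31, 12.04 and 11.88 against 11.95, 11.25 and 10.71, and differed by -0.77 (SE 0.34). H2AC14, the brightest H2A gene, was among the tightest, at 15.99, 16.30 and 16.32 against 16.03, 15.89 and 15.90, with a difference of -0.26 (95% interval -0.64 to 0.11). A 2-fold change was excluded for H2AC14. The pseudogene H2AC2P was the 1 H2A gene with a difference above 0, at 0.32 (SE 0.20).

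Of the 17 H2B genes, 15 had a difference below 0 and the median was -0.16 (-0.37 to -0.02 as single arrays were left out). Differences between the classes were not tested. H2BC6 was the most negative, at 10.39, 10.22 and 9.90 in si-Control and 10.14, 9.68 and 8.85 in si-C1GALT1-3, a difference of -0.61 (SE 0.36, limma adjusted p = 0.514). The groups overlapped by 1 sample, and the difference ran from -0.91 to -0.26 as single arrays were left out. H2BC26 was the H2B gene without overlap, at 9.58, 9.32 and 9.21 against 9.15, 9.06 and 8.73, with a difference of -0.39 (SE 0.18, limma adjusted p = 0.419). H2BC13, the brightest, differed by -0.10 with a 95% interval of -0.50 to 0.31, which excludes 2-fold. H2BC1, a testis H2B, was the most positive at 0.06 (SE 0.34), and its si-Control replicate 2 stood at 7.93 against 8.82 and 9.14. Without that array its difference was -0.29.

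Many H2A and H2B genes lie head to head and share 1 promoter region. In 9 neighbouring pairs the annotated first positions lay within 1000 bases of each other. Both members of 7 pairs had a difference below 0, and the H2A gene was the more negative in 5. The difference between partners ran from -0.67 in the pair of H2AC13 and H2BC13 to 0.41 in the pair of H2AC7 and H2BC7. By location, the median was -0.26 for the 35 genes of the large chromosome 6 cluster, -0.26 for the 21 genes of the second chromosome 6 cluster and -0.31 for the 7 genes of the first chromosome 1 cluster. H4C16 on chromosome 12, outside these clusters, differed by 0.01 (SE 0.27).

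Of the 12 H3 genes, 10 had a difference below 0 and the median was -0.24 (-0.38 to -0.11 as single arrays were left out). H3 carries the tail on which most of the known chromatin marks are placed. H3C2 stood at 12.11, 12.09 and 11.95 in si-Control and at 11.92, 11.40 and 10.68 in si-C1GALT1-3. The si-Control samples lay close together (SD 0.09, n = 3) and above all si-C1GALT1-3 samples, which spread more widely (SD 0.62, n = 3). The difference was -0.72 (SE 0.32, limma adjusted p = 0.407), and it ran from -1.01 to -0.39 as single arrays were left out. At the other end, H3C4 stood at 15.19, 15.35 and 15.33 against 15.24, 15.29 and 15.33, a difference of -0.0053 with a 95% interval of -0.31 to 0.30. H3C13 likewise differed by 0.01 (95% interval -0.30 to 0.33). These bright genes were among the most repeatable of the class.

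H3C8 had the most positive fitted difference of all 66 genes, and it came from 1 spot. Its values were 12.70, 10.05 and 12.35 in si-Control and 12.61, 12.10 and 11.88 in si-C1GALT1-3. The low si-Control replicate 2 spot lies 2 columns outside the region left out. The difference was 0.50 (SE 0.73). With the region widened by 5 rows and columns on each side, an alternative chosen after seeing the data, it was -0.33, as it was without si-Control replicate 2.

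The H4 genes encode the partner of H3 in the central tetramer, and most encode the same protein. Over the 14 genes the median was -0.31 (-0.54 to -0.15 as single arrays were left out), 11 differences were below 0, and the 3 histone genes with p under 0.05 were all H4 genes. H4C3 stood at 15.31, 15.38 and 15.88 in si-Control and at 14.88, 14.67 and 14.62 in si-C1GALT1-3. Every si-C1GALT1-3 sample lay below every si-Control sample. The difference was -0.80 (SE 0.20), or 1.74-fold, with a limma adjusted p of 0.2005, and it missed the call because it was under 2-fold. H4C2 stood at 12.29, 12.47 and 12.65 against 12.03, 11.72 and 11.67, again without overlap. Its difference was -0.67 (SE 0.17), or 1.59-fold, with a limma adjusted p of 0.207. H4C13 stood at 13.37, 13.63 and 13.74 against 13.22, 12.90 and 12.92, and differed by -0.56 (SE 0.17, limma adjusted p = 0.256). These 3 genes were lower in si-C1GALT1-3 on each slide, also on slide 1, where H4C3 differed by -0.43, H4C2 by -0.26 and H4C13 by -0.14. With the slide as a block, 9 histone genes had p under 0.05, all lower and these 3 among them, and none was called. That is 9 of 66 against 8.35% of all genes lower in the same fit.

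H4C11, also on chromosome 6, had a fitted difference above 0. It stood at 15.34, 14.49 and 14.32 in si-Control and at 15.27, 14.87 and 15.17 in si-C1GALT1-3. The groups overlapped through si-Control replicate 1, the highest of all 6. The difference was 0.39 (SE 0.30, 95% interval -0.37 to 1.14, limma adjusted p = 0.640), and within slides it was -0.07, 0.38 and 0.85. As single arrays were left out it ran from 0.19 to 0.69. The spot, at row 180 and column 57, lies just outside the region left out of si-Control replicate 2. H4C11 was the 1 H4 gene with a difference above 0.1. Whether it differs from the other H4 genes in its response was not tested.

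Probes of the same gene did not always give the same answer. For 9 genes a second, dimmer probe was on the array. For H2BC21 that probe, A_23_P149545, stood at 6.32, 5.71 and 5.73 in si-Control and at 6.98, 6.99 and 7.01 in si-C1GALT1-3. It was detected in 2 of 3 si-Control samples and in each si-C1GALT1-3 sample. It rose by 1.08 (SE 0.20, limma adjusted p = 0.135), the 1 call among the 75 histone probes, against 1.65% of all probes called higher and 0.992% called lower. The brighter probe of H2BC21 stood at 13.77, 12.997 and 13.10 against 13.34, 13.19 and 12.42, a difference of -0.31 (SE 0.33). The call was lost without si-Control replicate 2 (0.98) or replicate 3 (0.98), and with normexp background correction, where the difference was 0.57.

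H2BC12 was similar in direction, with a difference of 0.68 (SE 0.46) for the dimmer probe and -0.16 (SE 0.23) for the brighter. H2AC6 gave 0.11 and -0.37. H2BC21, H2BC12 and H2AC6 are known also to give polyadenylated messages, and which message each probe reads is not given in the sources used here. In H2AC17 the dimmer probe was the lower, at -1.04 (SE 0.37, limma adjusted p = 0.310) against -0.06 (SE 0.29) for the brighter. Its values were 12.87, 12.78 and 12.43 in si-Control and 12.34, 11.63 and 10.97 in si-C1GALT1-3, without overlap. For H4C13, whose brighter probe differed by -0.56, the dimmer gave -0.03 (SE 0.26), so the difference at H4C13 rests on 1 of its 2 probes. H4C2 and H4C3 had 1 probe each. The differences of the probe pairs were not tested.

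**Figure D4:**
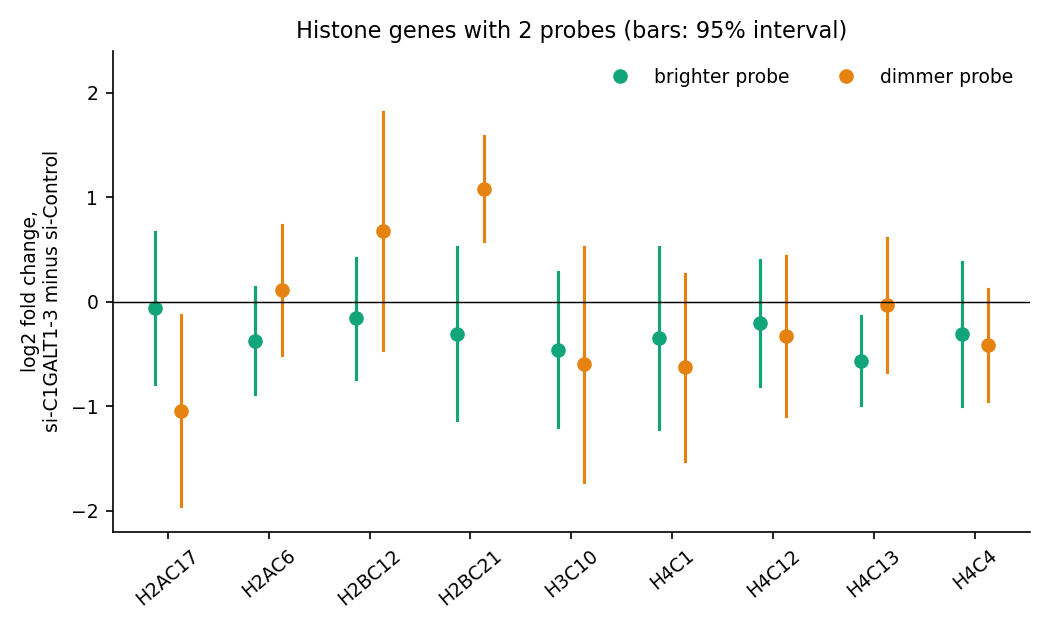
Log2 fold change, si-C1GALT1-3 minus si-Control, of the brighter and the dimmer probe of the 9 histone genes with 2 probes, with 95% intervals as bars. The probes of H2BC21 give -0.31 and 1.08 and those of H2AC17 give -0.06 and -1.04.

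None of the genes that transcribe the histone genes and cut their messages passed the call by limma. Of 28 such genes, 4 were higher and 2 lower at an unadjusted p under 0.05, against 9.49% and 7.14% of all genes, and the median was 0.03. NPAT, the platform of the histone locus body, stood at 8.79, 8.92 and 9.19 in si-Control and at 8.67, 8.85 and 8.60 in si-C1GALT1-3, a difference of -0.26 (SE 0.16). SLBP, the stem-loop binding protein, differed by -0.13 (SE 0.25). CASP8AP2, another histone locus body protein, differed by 0.21 (SE 0.25), ZNF473, a protein of the processing complex, by -0.39 (SE 0.31), and LSM10 by -0.09 (SE 0.18).

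LSM11, with LSM10 a subunit particular to the U7 snRNP that guides the 3′ cut, was the most negative of these genes. It stood at 9.92, 10.16 and 8.57 in si-Control and at 8.32, 8.41 and 7.42 in si-C1GALT1-3. It was lower on every slide, with differences of -1.60, -1.75 and -1.15, while both slide 3 values were the lowest of their groups. The difference was -1.50 (SE 0.50, limma adjusted p = 0.292). With the slide as a block it passed the call (SE 0.17, limma adjusted p = 0.180), against 281 of 22436 genes called lower in that fit. CCNE2, a cyclin E that with CDK2 phosphorylates NPAT, was the most positive at 0.98 (SE 0.30, limma adjusted p = 0.264).

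Of 15 measured genes for translation and decay of histone messages, 0 were called in either direction by limma, against 2.08% of all genes called higher and 1.33% lower. At an unadjusted p under 0.05, 1 was higher and 0 lower, against 9.49% and 7.14% of all genes, and the median was 0.22. ERI1, the exonuclease that trims the histone stem-loop, differed by -0.54 (SE 0.22), and PNPT1 by 0.51 (SE 0.16). Among 25 chaperones and depositing factors the median was -0.02. Of these, 5 were lower and 2 higher at an unadjusted p under 0.05, against 7.14% and 9.49% of all genes. MCM2, among the 5 lower, is also counted with the replication fork genes below. With the slide as a block the counts were 3 lower and 5 higher, against 1873 lower and 2759 higher of 22436 genes in that fit. HJURP, which places the centromeric H3 variant CENPA, fell by 2.01 (SE 0.41, limma adjusted p = 0.150) and was the 1 gene of the 25 called, against 1.33% of all genes called lower. It stood at 12.44, 13.19 and 12.50 in si-Control and at 11.02, 11.19 and 9.89 in si-C1GALT1-3. The call was lost without si-Control replicate 2, at -1.77. CABIN1, a subunit of the HIRA complex that deposits H3.3, was the most positive at 0.95 (SE 0.17, limma adjusted p = 0.144) on 2 si-Control values, which missed the call because it was under 2-fold.

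Histone genes outside the replication-dependent group were measured for 20 of 25 listed, and 0 were called by limma, with a median of -0.18. At an unadjusted p under 0.05, 4 were lower and 1 higher, against 7.14% and 9.49% of all genes. CENPA stood at 9.85, 10.43 and 9.87 in si-Control and at 9.35, 9.06 and 8.28 in si-C1GALT1-3, a difference of -1.16 (SE 0.33, limma adjusted p = 0.239). H2AX, the variant marked at DNA breaks, differed by -0.81 (SE 0.25), and H2AZ1 by -0.59 (SE 0.18). CENPA, H2AX and H2AZ1 were lower on every slide. H3-3A, which encodes the replication-independent H3.3, differed by 0.0036 (SE 0.13). H2AJ was the most positive at 0.77 (SE 0.19), but as the median of its probes it was -0.25.

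The replication fork genes act in the same S phase. Of 34 measured, 31 were below 0, against 47.6% of all genes, and the median was -0.61. At p under 0.05, 15 were lower and 0 higher, against 7.14% and 9.49% of all genes. MCM5, a subunit of the replicative helicase, fell by 1.05 (SE 0.18, limma adjusted p = 0.141) on 2 si-Control values, and CDC45, which activates that helicase, fell by 1.12 (SE 0.27, limma adjusted p = 0.186). These 2 were the only ones called, against 1.33% of all genes called lower, and neither was called with the slide as a block. As the median of its probes MCM5 differed by -0.63 and was not called, and with the left-out region kept it differed by 0.013. Their number ran from 0 to 8 when single arrays were left out. RPA1 was the most positive at 0.21 (SE 0.42), but it was -0.64 as the median of its probes and -0.12 without si-Control replicate 2. The fork median ran from -0.85 without si-Control replicate 1 to -0.35 without si-Control replicate 3, where the median of the replication-dependent histone genes was -0.36. Within slides 1 to 3 the fork genes had medians of -0.12, -0.57 and -1.22, beside 0.03, -0.49 and -0.43 for the replication-dependent histone genes. Both groups were nearest to 0 on slide 1. The difference between the 2 groups of genes was not tested.

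**Figure D5:**
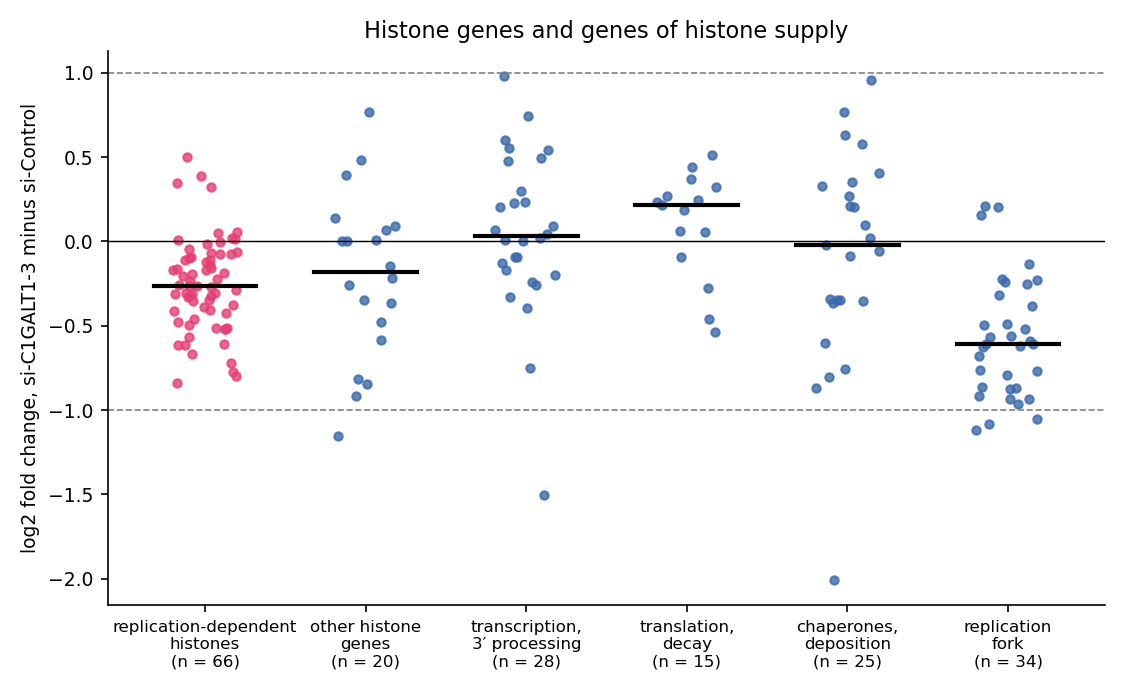
Log2 fold change, si-C1GALT1-3 minus si-Control, of each replication-dependent histone gene and of the genes of 5 related lists, with black bars at the medians and 2-fold changes as dashed lines. The medians run from -0.61 for the replication fork to 0.22 for translation and decay, with -0.27 for the replication-dependent histone genes.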

How the data were processed

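Total RNA of AGS cells was labelled as cDNA and hybridised to Agilent SurePrint G3 Human GE v3 arrays, and the spot intensity values deposited by the authors come from Agilent Feature Extraction 10.5.1.1, per the labels. The scanner's processed intensity, deposited per spot, is already background-corrected. Here it was put on the log2 scale, with control spots (2075 per array), outlier spots (100 to 424 per array) and rows 113 to 288, columns 59 to 115 of si-Control replicate 2 set to missing, normalised by quantiles over the 6 arrays and averaged per probe. Quantile normalisation and limma follow the methods of the study.

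Differences were fitted over 58193 probes with limma 3.58.1 in R 4.3.3 (lmFit and eBayes, no block), tested on simulated data, with Benjamini-Hochberg adjustment over all probes. A call needed p under 0.01 and at least 2-fold. Summaries used Python 3.11.15 with pandas 2.3.3. Probes were named through their RefSeq accession in a GRCh38.p14 gene table. Of 58201 gene probes, 31104 had a symbol. The array number limits the precision.

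Same-numbered arrays share a slide. Their deviations from the group means correlated at r = 0.198, 0.215 and 0.329 across probes, against -0.215 to 0.010 for other pairs, so the numbers were taken as pairs and the slide as a block was an alternative.

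The histone genes and lists were chosen with earlier results of these data known. Genes named were, per histone class, those with the largest rise, the largest fall and the highest signal, genes whose spots were left out, and per list the called genes and both extremes, plus NPAT, CASP8AP2, SLBP, LSM10, LSM11, ZNF473, H2AX, H2AZ1, H3-3A and C1GALT1. H3C8, H4C2, H4C3, H4C13, H2BC26, H2AC13, H3C13, H4C16 and genes with 2 probes were named after their values were seen. Listed symbols without a match were EXOSC10, H3-3B, H3-7 and POLA2, not analysed here, and H2AW, H2BU1 and H4-16, older names of H2AC25, H2BC26 and H4C16, which are among the 66. One listed gene is not reported here. The lists were histone transcription and 3′ processing, translation and decay, chaperones and deposition, other histone genes, replication fork, and epithelial and other cell markers.

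Alternatives were the region kept, scaling to the 75th percentile, no normalisation between arrays, and normexp on the spot's median signal with an offset of 50. Others were the series table with a floor of 10, dim probes left out, the slide block, and a trend and robust prior. The rest were a t-test in place of limma, outlier spots kept, the median over probes, each array left out, and a wider region, the last chosen after seeing the data. The series table equals the scanner's background-subtracted column within 4.8e-09.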

Additional observations from a re-analysis of the deposited data

How the results depend on the processing

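The histone genes gave 0 calls in either direction under every alternative except without si-C1GALT1-3 replicate 1, so that leaving out arrays gave 0 to 1 lower. Their median ran from -0.46 to -0.10 over these, and relative to the median of all genes from -0.30 to -0.25 over the other alternatives. Leaving out arrays took the medians of H1 from -0.70 to -0.16, H2A from -0.52 to -0.13, H2B from -0.37 to -0.02, H3 from -0.38 to -0.11 and H4 from -0.54 to -0.15. Over all probes, calls higher (961) were 474 with the region kept, 497 with normexp and 560 with the t-test. Calls lower (577) were 295 without normalisation between arrays and 336 with the t-test. The direction held in these settings for H4C2, H4C3, H4C13, H2AC16 and H4C11.

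With the replicate block, the histone genes gave 0 calls, the median was -0.26, the transcription and processing list gave 1 call lower (LSM11) and the replication fork list 0. Among the other cell markers the call of HBB was also lost (0 called). The block changed no other call of a named gene. LSM11 was also called with normexp and with dim probes left out (1 each), and leaving out arrays gave 0 to 1 lower and 0 to 1 higher in that list. Among chaperones the call lower was lost with the t-test (0), and leaving out arrays gave 0 to 1 lower and 0 to 1 higher. Other histone genes gave 1 call lower, CENPA, with normexp and with dim probes left out, and their median was -0.064 with the region kept, -0.051 without normalisation and -0.30 with dim probes left out. Fork genes called lower numbered 4 with the region kept, the 75th percentile or normexp, 0 without normalisation, 1 with the series table or the t-test, and 0 to 8 as arrays were left out.

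Signs turned for genes near 0 and for MCM5, H2AJ, H3C8 and RPA1. With the region kept, H2BC1 was -0.13, H3-3A -0.028 and MCM5, whose si-Control replicate 2 spot lies in it, 0.013. H3-3A was -0.0085 with the 75th percentile. H3C4 was 0.044 with normexp, 0.057 with the series table and 0.0020 with the wider region, which put H3C8 at -0.33. LSM10 was 0.033 without normalisation. As medians over probes H2AJ was -0.25 and RPA1 -0.64, and MCM5, at -0.63, was no longer called. As arrays were left out, H1-2 from -0.46 to 0.0059, H2BC1 from -0.29 to 0.31, H3-3A from -0.046 to 0.082, H3C4 from -0.057 to 0.025, H3C8 from -0.33 to 1.00, LSM10 from -0.17 to 0.029, RPA1 from -0.12 to 0.66 and SLBP from -0.34 to 0.10 ran through 0. The call of the dimmer H2BC21 probe was lost with the region kept (0.88), without normalisation (1.15) and with normexp (0.57). The cause was not tested.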
